A study of Mus musculus with 2 samples.

Results

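Cdx1, Cdx2, Hnf4a, Hnf4g, Klf5, Klf4 and Elf3 are transcription factors that set or maintain the identity of the intestinal epithelium. The rows of these 7 genes were taken by symbol from a count matrix of 17829 genes, and all 7 were present and measured. The matrix comes from live EpCAM-positive primary colonic epithelial cells of C57BL/6 mice, sorted by flow cytometry and sequenced with a 10x Genomics kit that reads the 3' ends of transcripts. One library was of genotype Mettl14 WT, with 4210 cells, and one of Mettl14 KO, with 3653 cells. Mettl14 pairs with Mettl3 to place N6-methyladenosine (m6A) on mRNA. The series text states 2 weeks for both without saying what this time counts from, and the labels give no driver of the deletion, no number of animals and no treatment.

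The caudal-type homeobox factors Cdx1 and Cdx2 give cells of the hindgut their intestinal fate, and loss of Cdx2 lets stomach genes come up in intestinal epithelium. The nuclear receptors Hnf4a and Hnf4g act partly in each other's place to hold enterocyte genes on, among them those of the brush border and of lipid handling. The Krüppel-like factors Klf5 and Klf4 bind similar GC-rich sites, Klf5 being the factor of dividing crypt cells and Klf4 that of differentiated surface and goblet cells. Elf3, of the ETS family, acts in the differentiation of epithelial cells.

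The WT library held 60205658 UMIs (unique molecular identifiers, counted transcript molecules) with a median of 12094 per cell, and the KO library 37635762 with a median of 9119. The libraries shared 2 cell barcodes. Mettl14 itself was counted 632 times in the WT and 201 times in the KO library, which is 10.5 and 5.34 CPM (counts scaled to the same library total). The authors' cluster numbers were used, and by marker genes clusters 1 and 2 were goblet-like and cluster 3 cycling-like. Cluster 4 was colonocyte-like and cluster 5 enteroendocrine-like, and cluster 6 carried stromal markers. Cluster 6 scored nearly as high for tuft markers as for stromal ones and, with 31 KO cells, was not compared. In the WT library 33 cells of cluster 0 were rich in pancreatic acinar mRNAs, against 0 in the KO library, and acinar genes led that cluster. Without these cells stem markers scored highest in cluster 0 while Mcpt1, Ccl20, Msln and Spib led it, so it was left without a name. Summed acinar markers stood at 1489 CPM in WT and 117 CPM in KO cells, and stromal markers at 111 and 19.8 CPM. Leaving out the 33 acinar-rich cells changed no call of the 7 factors.

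Promoter sequences from RefSeq (GRCm38.p6, 250 bases before the annotated start) were available for Cdx2, Hnf4a, Klf4 and Elf3. Those of Hnf4a and Klf4 are shown because these factors gave calls in opposite directions. Hnf4a has separate annotated starts that lie 40298 bases apart. Reads from transcript 3' ends do not tell which start a transcript came from. Capitals mark the letters searched on both strands: GTTAAT for an HNF1 half-site, AGATAA for GATA factors, GGGCGG for a GC box, CCACCC for a CACCC box, and TTTATG or TTTATT for a CDX core.
Hnf4a upstream start, chr2:163506607-163506856, plus strand: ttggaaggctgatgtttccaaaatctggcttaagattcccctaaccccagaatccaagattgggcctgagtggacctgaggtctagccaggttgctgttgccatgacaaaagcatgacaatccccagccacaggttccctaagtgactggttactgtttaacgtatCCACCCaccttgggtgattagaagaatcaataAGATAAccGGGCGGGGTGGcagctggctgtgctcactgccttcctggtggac
Hnf4a downstream start, chr2:163546905-163547154, plus strand: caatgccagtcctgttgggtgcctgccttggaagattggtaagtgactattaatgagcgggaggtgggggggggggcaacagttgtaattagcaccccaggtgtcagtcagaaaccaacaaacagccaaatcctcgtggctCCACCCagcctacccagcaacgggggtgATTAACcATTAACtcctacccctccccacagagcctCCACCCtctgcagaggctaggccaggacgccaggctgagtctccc
Klf4, chr4:55532476-55532725, minus strand: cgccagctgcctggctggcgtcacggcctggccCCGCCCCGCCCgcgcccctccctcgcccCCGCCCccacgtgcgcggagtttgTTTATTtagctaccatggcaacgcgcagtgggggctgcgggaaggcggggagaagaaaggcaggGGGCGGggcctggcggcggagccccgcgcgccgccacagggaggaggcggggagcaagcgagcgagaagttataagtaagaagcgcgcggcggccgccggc
The upstream Hnf4a window held 1 GATA match, 1 GC box and 2 CACCC boxes, one of which shares a base with the GC box. The downstream Hnf4a window held 2 HNF1 half-sites and 2 CACCC boxes. An HNF1 half-site was present in 6.43% of 32851 such mouse windows, a GATA match in 9.99% and a CACCC box in 28.1%. The Klf4 window was 74.0% G and C, against a median of 52.4% over all windows, and held 4 GC boxes and 1 CDX core. A GC box was present in 32.7% of all windows and a CDX core in 25.5%. Further searches with CAAAGT for an HNF4 half-site and with CGGAAG for an ETS core found no match in these 3 windows, and such letters are in 12.6% and 13.6% of all windows. These matches describe the sequences and are not evidence of binding.

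Over all cells, Hnf4a and Hnf4g were lower in the KO library by at least 1.5-fold, and the other 5 factors were within 1.5-fold. A gene was called when its CPM ratio passed 1.5-fold and the 95% interval from counting error left out equal levels. By that rule 2 of 7 factors were lower, beside 16.2% of the 13334 genes measured, and 0 of 7 were higher, beside 16.7%. With so many genes called between the libraries, the number of factors called does not set them apart. With 1 library for each genotype no test is possible, and the intervals leave out any variation between animals or preparations.

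Hnf4g (chromosome 3, 3508030 to 3658052, plus strand, GRCm38) had the largest change of the 7. It was counted 887 times in the WT library and 248 times in the KO library. Its level was 14.7 CPM in WT and 6.59 CPM in KO cells, 2.24-fold lower, with a log2 ratio of −1.16 (interval −1.37 to −0.96). Of all measured genes, 6.75% had a lower ratio. Hnf4a (chromosome 2, 163506808 to 163572910, plus strand) fell from 85.7 to 56.3 CPM, a log2 ratio of −0.61 (−0.68 to −0.53). That is 1.52-fold, just past the threshold. The nuclear receptor with fewer UMIs therefore had the larger difference.

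Klf4 (chromosome 4, 55527143 to 55532466, minus strand) stood at 161 CPM in WT and 222 CPM in KO cells, a log2 ratio of 0.47 (0.42 to 0.51). Cdx1 (chromosome 18, 61018862 to 61036199, minus strand) stood at 168 and 214 CPM, a log2 ratio of 0.35 (0.31 to 0.40). Elf3 (chromosome 1, 135253575 to 135258568, minus strand) stood at 173 and 193 CPM, with a log2 ratio of 0.16 (0.11 to 0.20). For these 3 genes the KO value was above the WT value by more than counting error and by less than 1.5-fold. Cdx2 (chromosome 5, 147300805 to 147307270, minus strand) stood at 123 and 109 CPM, a log2 ratio of −0.18 (−0.23 to −0.12). Klf5 (chromosome 14, 99298691 to 99315036, plus strand) was the most frequently counted of the 7, with 735 CPM in WT and 734 CPM in KO cells and a log2 ratio of −0.00 (−0.02 to 0.02). The median log2 ratio of all measured genes was −0.04.

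**Figure D1:**
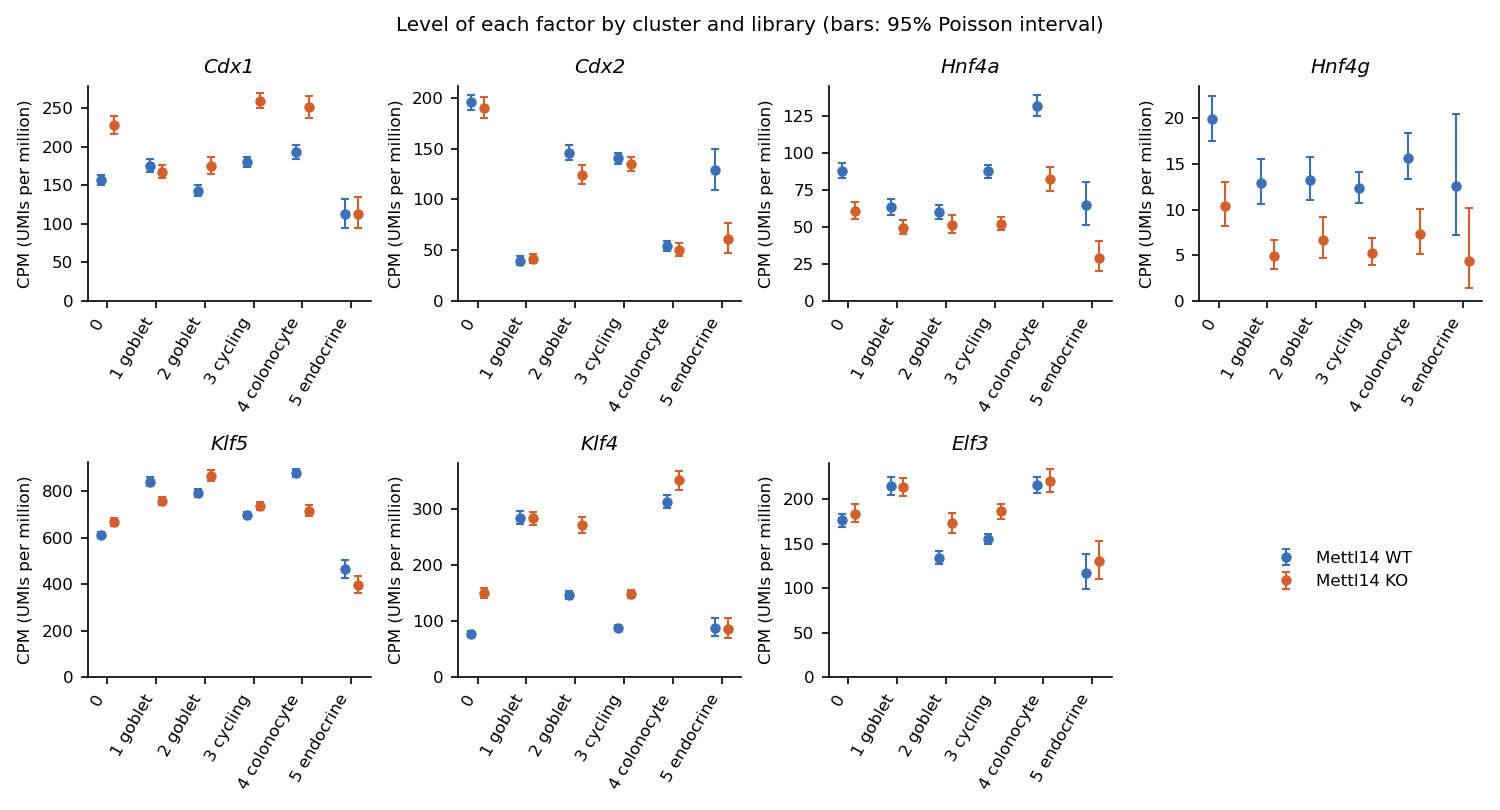
CPM of each factor in clusters 0 to 5, with a panel and an axis from 0 for each factor. Blue points are for Mettl14 WT, orange points for Mettl14 KO and bars for the 95% exact Poisson interval of counting error. Hnf4g has the lowest values, from 12.4 to 19.9 CPM in WT and from 4.38 to 10.4 CPM in KO cells. Klf5 has the highest, from 466 to 877 CPM in WT and from 398 to 866 CPM in KO cells.

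Within clusters, the 7 factors in 6 clusters made 42 comparisons, of which 10 were lower in KO cells, 3 higher and 29 neither. In the 6 clusters between 9.90% (cluster 5) and 17.1% (cluster 1) of measured genes were called lower, and between 12.8% (cluster 5) and 20.1% (cluster 0) higher. All 3 higher calls were of Klf4. The 10 lower calls were 6 of Hnf4g, 3 of Hnf4a and 1 of Cdx2.

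Hnf4g was lower in all 6 clusters, which 2.07% of the 8976 genes measured in all 6 clusters were. In cluster 0 it went from 19.9 to 10.4 CPM, the highest level in either library. In goblet-like cluster 1 it went from 12.9 to 4.91 CPM and in goblet-like cluster 2 from 13.3 to 6.64 CPM. Both goblet-like clusters and cluster 0 thus moved the same way. In cycling-like cluster 3 the levels were 12.4 and 5.30 CPM, and in colonocyte-like cluster 4 they were 15.7 and 7.28 CPM. The log2 ratios lay between −0.93 (cluster 0) and −1.53 (cluster 5), and in cluster 5 the ratio rested on 16 WT and 5 KO UMIs (interval −3.33 to −0.01). Under 7 alternative choices of cells or scaling the call held in all 7 in cluster 3 and in 6 in clusters 0, 1 and 2. It held in 5 in cluster 4, and cluster 5 was measured in 3, each a call. Among these choices, leaving out the acinar-rich cells could not change clusters 1 to 5, which hold none. WT levels of clusters 1 to 5 did not differ beyond counting error from one neighbour to the next, and no neighbouring KO levels did. Hnf4g was near the level seen outside the epithelial clusters. In cluster 6 of the WT library, whose stromal markers sum to 8737 CPM, it was counted 5 times, 7.85 CPM (2.55 to 18.3).

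The ratios of Hnf4a were below 0 in all 6 clusters with intervals that left out equal levels, as for 6.67% of genes. It was called lower in clusters 3, 4 and 5, and 10.8% of genes were called lower in at least 3 clusters and higher in none. Colonocyte-like cluster 4 had the highest level in both libraries, with 132 CPM in WT and 82.3 CPM in KO cells, a log2 ratio of −0.68 (−0.85 to −0.52). In cycling-like cluster 3 it fell from 87.6 to 52.1 CPM, a log2 ratio of −0.75 (−0.90 to −0.61). Enteroendocrine-like cluster 5 had the largest difference, from 64.7 to 28.9 CPM, a log2 ratio of −1.16 (−1.79 to −0.56) on 82 and 33 UMIs. Summed tuft markers in cluster 5 were 37.9 CPM in WT and 5.26 CPM in KO cells, and immune markers 144 and 268 CPM. Their part in the Hnf4a and Hnf4g values of cluster 5 was not tested. Cluster 0 (88.0 and 61.0 CPM), cluster 1 (63.2 and 49.6 CPM) and cluster 2 (59.9 and 51.7 CPM) stayed within 1.5-fold. Under 7 alternative choices of cells or scaling Hnf4a was called lower in all 7 in clusters 3 and 5. It was called in 5 in cluster 4 and in 3 in cluster 0. As for Hnf4g, the choice without acinar-rich cells could not change clusters 1 to 5. The interval in cluster 2 came closest to equal levels, from −0.42 to −0.01. Hnf4a in the WT library was therefore highest in the colonocyte-like cells and lowest in the cells of clusters 5, 1 and 2, which did not differ from each other beyond counting error.

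Both libraries contained cells with Xist and cells with Y-linked transcripts, so each pooled female and male cells. Hnf4a ratios were below 0 in 6 of 6 clusters in the female cells alone and in 6 of 6 in the male cells alone. Those of Hnf4g were below 0 in all 5 clusters where it was measured in each sex. Of these Hnf4g ratios, 5 in female cells and 4 in male cells were called lower. The share of all genes called in each sex was not computed.

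Klf4 was higher in KO cells in clusters 0, 2 and 3, and 14.9% of genes were called higher in at least 3 clusters and lower in none. No factor was called higher in every cluster, as 4.77% of genes were, or had an interval above equal levels in every cluster, as 9.56% did. In cluster 0 Klf4 went from 76.8 to 150 CPM, a log2 ratio of 0.96 (0.84 to 1.09). In goblet-like cluster 2 it went from 146 to 271 CPM, a log2 ratio of 0.89 (0.78 to 0.99), and in cycling-like cluster 3 from 88.6 to 148 CPM, 0.74 (0.64 to 0.84). The male cells alone gave 0.58 (0.39 to 0.77) in cluster 3, under 1.5-fold. Clusters 4 and 1, with the most Klf4 in the WT library, differed less over all their cells. Goblet-like cluster 1 held 284 CPM in WT and 283 CPM in KO cells. Colonocyte-like cluster 4 held 313 and 351 CPM, and enteroendocrine-like cluster 5, where Klf4 was low, held 88.4 and 86.8 CPM. In the KO library the goblet-like clusters 1 and 2 therefore no longer differed in Klf4 beyond counting error, whereas cluster 1 had been above cluster 2 in the WT library. The ratio of highest to lowest cluster was 4.07 in WT and 4.04 in KO cells.

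Cells with a UMI of Ccl20 or Spib, genes of an inflamed or lymphoid-follicle-associated epithelium, made up 7.78% of WT and 30.3% of KO cells in cluster 0. Without such cells the log2 ratio of Klf4 was 0.68 (0.52 to 0.83) in cluster 0, 0.87 in cluster 2 and 0.69 in cluster 3, each still called. In cluster 4 it then went from 0.17 to 0.00 (−0.10 to 0.10). The value of cluster 4 moved the other way in cells with at least 1000 UMIs and a mitochondrial share of at most 10%, to 0.69 (0.44 to 0.95), which is called higher. Over all clusters this filter, also used below, kept only 25.2% of WT and 32.2% of KO cells. Summed immune markers were 55.1 CPM in WT and 129 CPM in KO cells of cluster 0, 84.3 and 93.8 CPM in cluster 2, and 36.6 and 59.1 CPM in cluster 3. Their part in the Klf4 values was not tested.

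**Figure D2:**
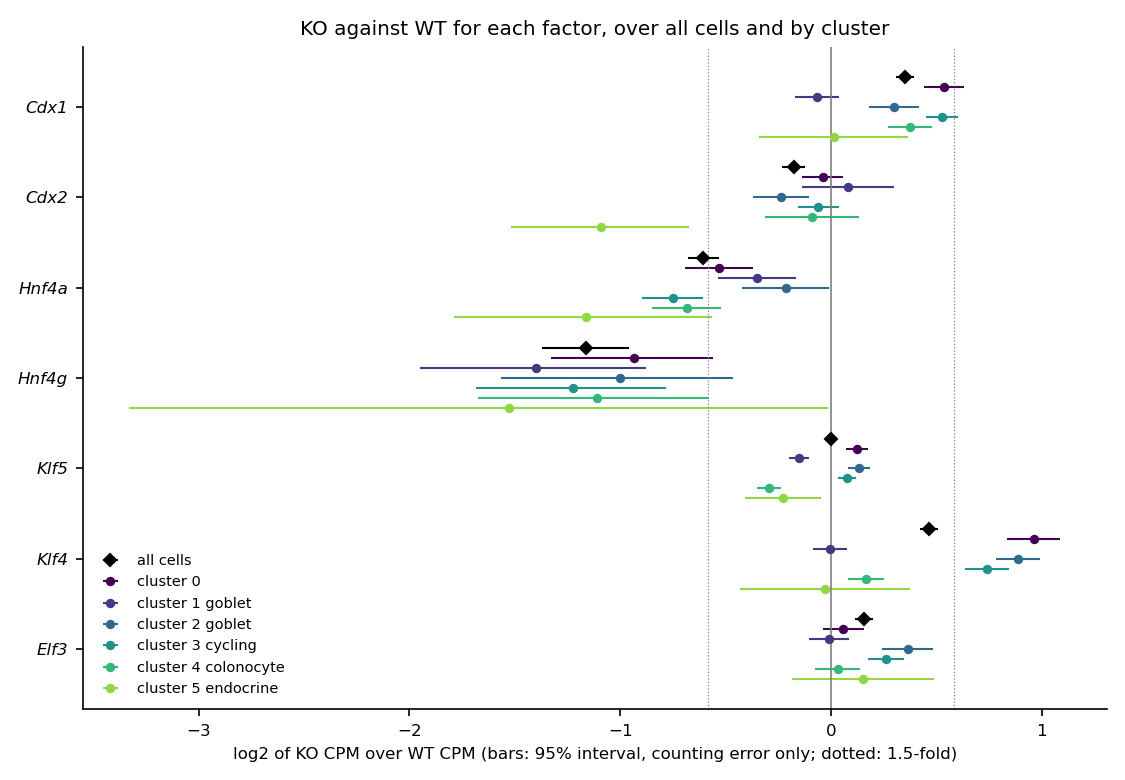
Log2 ratio of KO over WT CPM for each factor over all cells and in clusters 0 to 5, with bars for the 95% exact interval of counting error and dotted lines at 1.5-fold. Every Hnf4g and Hnf4a point lies below 0, and Klf4 lies past the upper line in clusters 0, 2 and 3.

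Klf5 was spread over all epithelial clusters and was within 1.5-fold in each over all their cells, yet its ratio differed from equal levels in each cluster by more than counting error. It was above 0 in cluster 0 (612 and 667 CPM), cluster 2 (790 and 866 CPM) and cluster 3 (697 and 736 CPM). It was below 0 in cluster 1 (841 and 758 CPM), cluster 4 (877 and 715 CPM) and cluster 5 (466 and 398 CPM). In cluster 5 the log2 ratio of −0.23 became −0.98 (−1.29 to −0.67) in quality-filtered cells, those with at least 1000 UMIs and a mitochondrial share of at most 10%. It was −0.82 (−1.34 to −0.33) in male cells, and both values were called lower. The colonocyte-like cluster thus had the highest level in WT cells and not in KO cells, where goblet-like cluster 2 was highest. Over all cells these differences summed to a ratio near 1, and its sign changed with the scaling.

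Cdx2 had the widest range over clusters of the 7 factors in both libraries, 4.97-fold in WT and 4.58-fold in KO cells. It was highest in cluster 0, at 196 CPM in WT and 190 CPM in KO cells. It was lowest in goblet-like cluster 1, at 39.3 and 41.6 CPM, and second lowest in WT cells in colonocyte-like cluster 4, at 53.7 and 50.6 CPM. Between these lay goblet-like cluster 2, at 146 and 124 CPM, and cycling-like cluster 3, at 140 and 135 CPM. In clusters 0, 1, 3 and 4 the libraries did not differ beyond counting error. The single call was in enteroendocrine-like cluster 5, where Cdx2 went from 129 CPM (163 UMIs) to 60.5 CPM (69 UMIs), a log2 ratio of −1.09 (−1.52 to −0.67). In male cells alone this value was −0.74 (−1.90 to 0.33), which is not a call. In colonocyte-like cluster 4 the cells with at least 1000 UMIs and a mitochondrial share of at most 10% gave −0.79 (−1.48 to −0.14), a lower call. The part of the tuft and immune markers of cluster 5, given above, in the Cdx2 value was not tested.

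Cdx1 was spread more evenly, from 112 to 193 CPM in WT cells. It was 228 CPM in KO against 157 CPM in WT cells of cluster 0, a log2 ratio of 0.54 (0.44 to 0.63). In cycling-like cluster 3 it was 260 against 180 CPM, 0.53 (0.45 to 0.60). These values lay just under 1.5-fold. Cluster 2 (175 against 143 CPM) and cluster 4 (251 against 193 CPM) also had intervals above equal levels, and clusters 1 (167 against 175 CPM) and 5 (113 against 112 CPM) did not.

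Elf3 was highest in clusters 4 and 1, at 216 and 215 CPM in WT and 221 and 213 CPM in KO cells. It differed beyond counting error in cluster 2, from 134 to 173 CPM, a log2 ratio of 0.36 (0.24 to 0.48). It also did so in cluster 3, from 155 to 186 CPM, 0.26 (0.18 to 0.35). In cluster 0 (176 and 184 CPM) and cluster 5 (118 and 131 CPM) the intervals included equal levels. With a range of 1.84-fold over the WT clusters and 1.69-fold over the KO clusters, Elf3 varied far less between clusters than Cdx2 or Klf4.

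Shares within a pair of related genes do not depend on how the libraries were scaled. Of all Cdx1 and Cdx2 UMIs, Cdx2 made up 42.4% in the WT library (exact Clopper-Pearson interval 41.6 to 43.1) and 33.7% in the KO library (32.9 to 34.6). The Cdx2 share was lower in KO cells of clusters 0 (55.5% and 45.5%), 2 (50.6% and 41.4%), 3 (43.8% and 34.1%), 4 (21.8% and 16.8%) and 5 (53.4% and 34.8%), with intervals that did not overlap. Cluster 1 was the exception, with 18.3% and 19.9%. In clusters 0, 3 and 4 Cdx2 itself did not differ beyond counting error and Cdx1 was higher, as given above. The Hnf4g share of both Hnf4 genes was 14.7% (13.8 to 15.6) in WT and 10.5% (9.27 to 11.8) in KO cells. Within clusters its intervals were apart in goblet-like clusters 1 (17.0% and 8.99%) and 2 (18.1% and 11.4%), in the latter only just, and overlapped in the other clusters. Klf4 made up 17.97% of Klf4 and Klf5 UMIs in WT and 23.2% in KO cells. The Klf4 share differed clearly in cluster 0 (11.1% and 18.3%), cluster 2 (15.6% and 23.8%), cluster 3 (11.3% and 16.7%) and cluster 4 (26.3% and 32.9%). In cluster 1 (25.2% and 27.2%) the intervals were barely apart, and in cluster 5 (16.0% and 17.9%) they overlapped. How often other gene pairs have intervals apart was not computed, so these differences do not set the pairs apart.

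**Figure D3:**
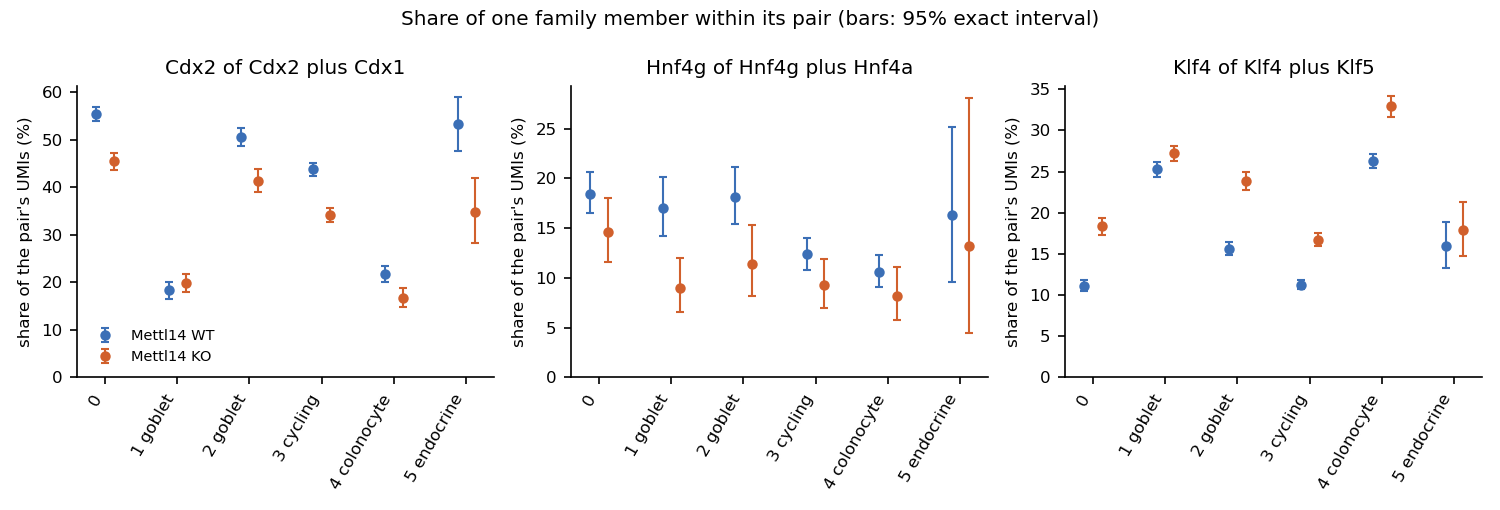
Share of a pair's UMIs held by one gene in clusters 0 to 5, with blue points for Mettl14 WT, orange points for Mettl14 KO and bars for the 95% exact binomial interval. The Cdx2 share is lower in KO cells in each cluster but 1, and the Klf4 share is higher in KO cells in each of the 6 clusters.

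To compare shares of cells at equal depth, each cell was thinned to 3000 UMIs, which kept 4038 WT and 3556 KO cells and left out 172 and 97. Hnf4a was then found in 21.4% of WT and 15.3% of KO cells (59.4% and 39.4% before thinning). Klf4 was found in 30.5% and 39.8% (64.2% and 68.4% before). Thinned shares were 38.7% and 46.2% for Cdx1 (80.05% and 80.02% before) and 37.9% and 43.1% for Elf3 (78.5% and 76.6% before). Cdx2 was found in 29.0% and 25.1% (61.7% and 50.1% before), and Klf5 in 84.6% and 84.8% (95.7% and 95.8% before). With all clusters pooled, Klf4 was thus found in more KO cells, Hnf4a and Cdx2 in fewer, and Klf5 in nearly equal shares. The cluster make-up also differed. Cluster 0 held 26.3% of WT and 22.3% of KO cells, and cluster 1 held 14.4% and 20.7%. Thinned Cdx2 shares were 43.1% and 41.9% in cluster 0, 8.47% and 9.49% in cluster 1, and 35.8% and 30.4% in cluster 2. For Cdx2 the WT and KO intervals overlapped in each of clusters 0 to 5. The part of cluster make-up in the pooled shares was not tested.

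Free RNA can give a UMI in a cell that does not make the transcript, so the WT cells of cluster 6 were set beside these shares as a background. Its 117 cells had a median of 3728 UMIs, against 12192 in clusters 0 to 5 of the WT and 9137.5 of the KO library. It also carried the epithelial gene Epcam at 865 CPM and tuft markers summing to 829 CPM, so it is not free of epithelial cells. At 3000 UMIs, 74 of these cells remained. Of them 13.5% had Cdx1, 8.11% Cdx2, 2.70% Hnf4a, 36.5% Klf5, 23.0% Klf4 and 9.46% Elf3, each below the share of all WT cells. For Klf4 the interval, 14.0 to 34.2, included the 30.5% of all WT cells, so that this share is not told from that of cluster 6. In WT cells of cluster 6 with at least 5 stromal marker UMIs, Klf4 stood at 175 CPM and Epcam at 649 CPM. In WT clusters 0 to 5 they stood at 161 and 1619 CPM. Whether cells of cluster 6 make Klf4 themselves was not tested, so for Klf4 this cluster may not measure free RNA. Hnf4g was found in 4.05% (0.84 to 11.4) of the 74 cells, against 3.99% of all WT and 2.11% of all KO cells. Its cell share is thus not told from background at this depth. The KO library had 13 cells of cluster 6 at this depth, too few for a background of its own. Of them 76.9% had Klf5, 38.5% Cdx1, 38.5% Elf3, 30.8% Klf4 and 23.1% Cdx2, with wide intervals that all included the shares of all KO cells. The 18.4% and 6.49% before thinning follow depth as well as level.

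**Figure D4:**
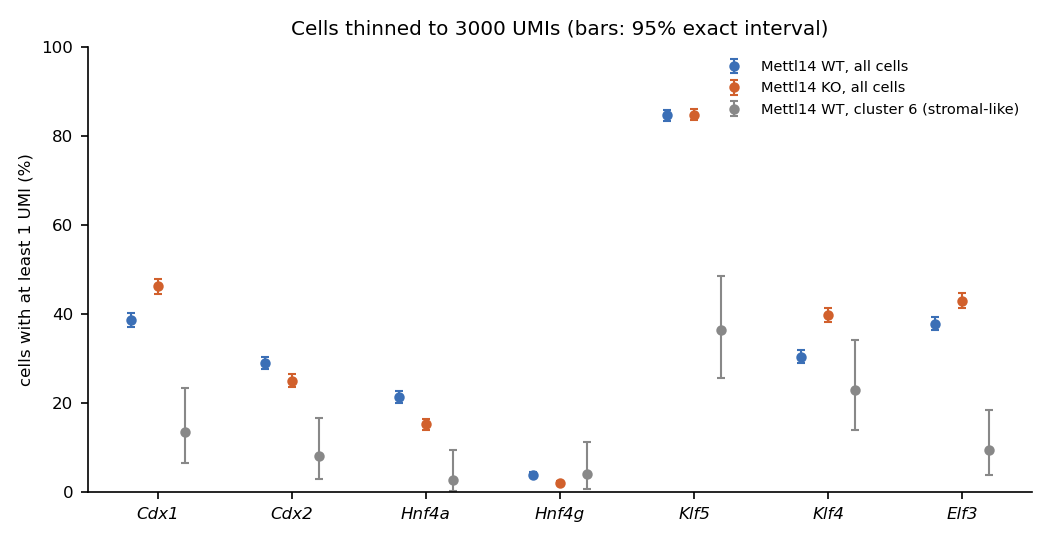
Share of cells with at least 1 UMI of each factor after each cell was thinned to 3000 UMIs, for all Mettl14 WT cells (blue), all Mettl14 KO cells (orange) and WT cells of stromal-like cluster 6 (grey), with 95% exact binomial intervals. Klf5 is found in over 80% of cells in both libraries, and the Hnf4g share of all cells lies within the interval of cluster 6.

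Single thinned cells held a median of 2 of the 7 factors in the WT and 3 in the KO library, with means of 2.46 and 2.56. None of the 7 was found in 4.11% of WT and 2.47% of KO cells. The most found in any cell was 6 of the 7, in 15 WT and 13 KO cells.

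Over the 6 clusters, the log2 levels of Cdx2 and Klf4 had a Pearson correlation of −0.92 in the WT and −0.31 in the KO library. Cdx1 and Hnf4a had 0.64 and 0.87, and Hnf4a and Elf3 had 0.55 and 0.87. The 6 points of a library share its cells, depth and preparation, so these values are descriptions. Among 6991 genes with at least 500 UMIs in each library, those most like a factor by the lower of its correlations in WT and in KO cells were named. They were Mif4gd, Fdx1 and Plp2 for Cdx1, and Igf2bp3, Osr2 and Pibf1 for Cdx2. For Hnf4a they were Cttnbp2nl, Plpp2 and S100a10, and for Hnf4g, itself under that minimum, Ech1, Epb41l4aos and Acadvl. For Klf5 they were Tmem79, Tirap and Necap2, for Klf4 Cmtm6, AW112010 and Prelid2, and for Elf3 Cdc42ep5, Cd14 and Tfrc. The leading gene of each factor had a correlation of about 0.92 or more in both libraries, and a search over so many genes with 6 points finds such values readily.

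The m6A writer acts on a short sequence of which GGACT is a frequent form, and its letters were counted in the longest coding transcript of each gene. Cdx2 held 8 in 2261 bases, 3.54 per kilobase, which is more than in 99.2% of 12557 genes. Cdx1 held 5 in 1750 bases, 2.86 per kilobase, more than in 97.2%. Elf3 held 2.39 and Klf4 1.65 per kilobase, above the median of 1.05. Klf5 held 0.895, Hnf4g 0.859 and Hnf4a 0.688 per kilobase. The 2 factors called lower over all cells thus had the fewest of these letters per kilobase, with Klf5, which did not differ, close to them. The mark itself was not measured here.

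Genes that work beside or under these factors were counted by list. Of 32 other intestinal transcription factors 30 were measured, of which 6 were lower, 0 higher and 24 neither, with a median log2 ratio of −0.26 beside −0.04 over all genes. The shares of all genes called, for this list and those that follow, were 16.2% lower and 16.7% higher. Vdr, the vitamin D receptor, went from 69.6 to 35.3 CPM (log2 ratio −0.98). Hes1, a Notch effector, went from 111 to 61.6 CPM (−0.85), and Myb, a factor of crypt progenitors, from 127 to 71.5 CPM (−0.83). Nr1i2 (−0.69) and Creb3l3 (−3.08, on 81 and 6 UMIs) were also lower, and are named because the count is small and were chosen after their values were seen.

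Among 29 measured brush border and lipid handling genes, the kind of gene that Hnf4 factors hold on, 12 were lower, 1 higher and 16 neither, with a median of −0.37. Mep1a, a brush border protease, went from 27.2 to 6.70 CPM (−2.02), and Espn, an actin bundler of microvilli, from 12.04 to 2.95 CPM (−2.03). Abcg2, an efflux transporter, went from 24.5 to 8.77 CPM (−1.49). All 3 ratios were below 0 in 6 of 6 clusters. The exception was Cdhr5, a protocadherin that links microvilli, which went from 73.1 to 144 CPM (0.98) and was above 0 in 6 of 6. Without the 33 WT cells rich in acinar mRNAs the median of the list was −0.38. Summed stromal markers were lower in the KO library as given above, and their part in these counts was not tested. The named genes were picked for large all-cell ratios, and any link between this list and the Hnf4 factors was not tested.

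Of 22 epithelial adhesion and keratin genes 4 were lower, 2 higher and 16 neither, with a median of −0.23. Krt18, a keratin of simple epithelia, went from 570 to 361 CPM (−0.66), and Jup, the junction protein plakoglobin, from 68.9 to 39.2 CPM (−0.81). Cldn3 and Cldn4, tight junction claudins, were higher, from 342 to 702 CPM (1.04) and from 25.7 to 47.9 CPM (0.90). Epcam, used for the sort, stood at 1611 and 1360 CPM.

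Of 13 measured relatives of Klf4 and Klf5, 3 were lower, 2 higher and 8 neither, with a median of −0.30. Klf10 went from 49.9 to 29.0 CPM (−0.78) and Klf6 from 87.0 to 53.5 CPM (−0.70), both below 0 in all 6 clusters. Klf13 went from 56.0 to 97.8 CPM (0.80) and was above 0 in all 6. Klf4 was thus among the family members with ratios above 0, and the family as a whole did not move one way. The remaining calls, outside the rule for named genes and chosen after their values were seen, were Klf2 (−1.21) and Klf8 (1.08, on 25 and 33 UMIs). Of 15 ETS relatives of Elf3, 1 was higher, 0 lower and 14 neither, with a median of −0.13. That gene, Elk3, named likewise after its value was seen, went from 4.34 to 6.86 CPM.

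Of 12 cell cycle genes described as targets of Klf4 or Klf5, 2 were higher, 2 lower and 8 neither, with a median of −0.30. Cdkn1a, the p21 inhibitor that Klf4 can activate, went from 48.7 to 131 CPM (1.42). Ccnd2, a D-type cyclin, went from 275 to 565 CPM (1.04). Myc went from 37.7 to 17.4 CPM (−1.11) and Egr1, an immediate early factor, from 125 to 44.7 CPM (−1.48). These 4 genes had ratios of one sign in all 6 clusters, above 0 for both the inhibitor and the cyclin. They were named for large all-cell ratios and the clusters hold the same cells, so one sign was likely. Any link to Klf4 or Klf5 was not tested.

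Genes of the stomach and foregut, some of which can appear when Cdx2 is lost, were mostly uncounted. Of 18 such genes 9 were in the matrix and 4 were measured, of which 1 was lower, 1 higher and 2 neither. Their median was 0.18 when Muc6 is set at its floor value. Muc6, a gastric gland mucin named after its value was seen, had 0 UMIs in the WT library and 138 UMIs in 113 KO cells. Against a floor of 3 counts over the WT library it was 73.6-fold higher, a log2 ratio of 6.20. The interval of its log2 ratio begins lower, at 5.88. Tff2, a trefoil peptide of stomach and pancreas, went from 30.8 to 10.9 CPM over all cells (−1.50). Without the 33 WT cells rich in acinar mRNAs its log2 ratio was 3.56, and in 5 of 6 clusters it was above 0. Over all cells Cdx2 was within 1.5-fold, and in cluster 5 it was called lower, as given above. Cdx2 was not measured separately in the cells with Muc6 or Tff2 UMIs, and a link between these genes was not tested.

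**Figure D5:**
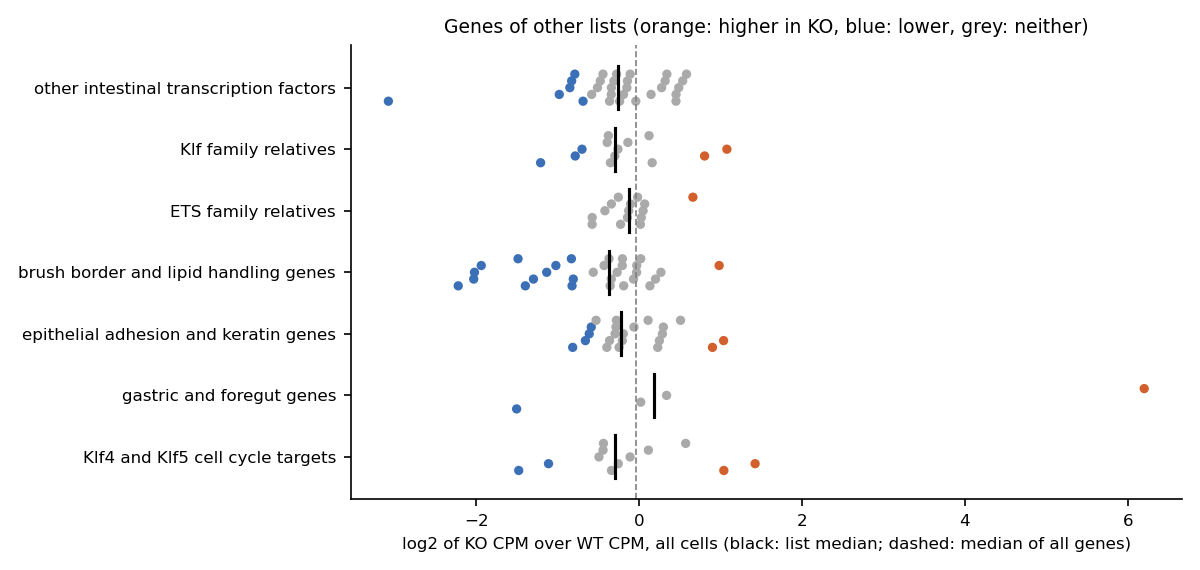
Log2 ratio of KO over WT CPM over all cells for each measured gene of 7 lists, with orange for higher, blue for lower, grey for neither, a black bar for the list median and a dashed line for the median of all genes. The brush border list has 12 genes to the left of the 1.5-fold limit and 1 to the right, and the rightmost point is Muc6 at its floor value.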

How the data were processed

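The deposited matrix holds UMI counts as whole numbers for each gene in each cell the authors kept, and a second deposited table gives every cell's library and cluster. The submitters' processing notes name bcl2fastq, Cell Ranger and mm10. Versions, the cell filter and the clustering method are not given in the sources used here, and doublets were not called again. Here UMI counts were added up per library, or per cluster within a library, and CPM is that sum over the matching total. Intervals are 95% exact: conditional binomial for ratios, Poisson for CPM and Clopper-Pearson for shares. They cover counting error only. Genes needed 50 or more UMIs in all to be measured, or 20 or more within a cluster, and compared clusters have 50 or more cells per library. Genes with 0 counts in a library were set at a floor of 3 counts. Gene positions are from the GENCODE annotation of GRCm38 given for this work. The members and lists were chosen with earlier results of these data known. Named genes were the 7 factors, up to 4 called genes per list that reached 10 CPM, ranked by the interval bound nearest to 0, and the 3 genes most like each factor. A gene that met this rule is not reported here. Cells were thinned at random with a fixed seed. Python 3.11.15, numpy 2.4.6 and scipy 1.17.1 were used, and the code was tested on simulated data.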

Additional observations from a re-analysis of the deposited data

Results flagged for a closer look

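Klf5 moved in opposite directions in different clusters. Its log2 ratio of KO over WT CPM was 0.12 in cluster 0, 0.13 in goblet-like cluster 2 and 0.078 in cycling-like cluster 3. It was −0.15 in goblet-like cluster 1, −0.30 in colonocyte-like cluster 4 and −0.23 in enteroendocrine-like cluster 5. Each interval left out equal levels, and none of these values reached 1.5-fold. The signs held under all 7 alternatives in each cluster, but some intervals then included equal levels. Leaving out the acinar-rich cells, 1 of the 7, could not change clusters 1 to 5. Setting the median of all genes to 0 was not done within clusters. In cluster 3 female cells gave 0.053 (−0.012 to 0.118) and quality-filtered cells 0.065 (−0.004 to 0.133). In cluster 0 male cells gave 0.090 (−0.015 to 0.194). In cluster 5 the ratio was −0.98 in quality-filtered cells and −0.82 in male cells, both called lower. With 1 library per genotype the difference between clusters was not tested. The search for opposite directions covered only the 7 factors, of which Klf5 has the most UMIs and so narrow intervals. How many of all genes meet the same rule was not computed, so it does not set Klf5 apart.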

How the results depend on the processing

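The sign of the all-cell ratio held under all 11 alternatives for 6 of the 7 factors. Klf5 was the exception, with 7 values below 0 and 4 above, from −0.07 to 0.05. Hnf4g (−1.30 to −0.92) was called in all 11, Hnf4a (−0.68 to −0.53) in 8 and Klf4 (0.32 to 0.66) in 2. Over all cells 0 factors were higher, and the count was 1 among quality-filtered cells (1000 or more UMIs, 10% or less mitochondrial), 1 in female cells and 3 with no fold minimum. The quality filter kept 25.2% of WT and 32.2% of KO cells. The 2 lower factors became 1 with the median of all genes set to 0, 1 in the quality-filtered cells, 1 after thinning to 3000 UMIs and 1 at 2-fold. Within clusters the 3 higher calls became 0 at 2-fold, and the 10 lower calls became 6 at 2-fold and 5 after thinning to 3000 UMIs, an alternative added after seeing the data, which leaves fewer UMIs. Shares of cells were higher in the KO library, with intervals apart, for 3 factors when thinned and for 1 unthinned. How many of all genes pass was not computed for these alternatives or for the shares of cells, so these counts do not set the factors apart. The median of the gastric list was 0.18, and was 1.95 without the cells rich in acinar mRNAs and 0.48 with equal weight for each cluster. The causes of the other changes were not tested. No paired analysis was possible because each genotype has 1 library, and for the same reason no replicate could be left out. Hnf4g in cluster 5, with 5 KO UMIs, is limited by depth.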
